A study of Mus musculus with 8 samples.

Results

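The genes of the mitochondrial ribosome were examined for lactylation of histone H4 at lysine 12 (H4K12la) in mouse brain. The genes were chosen by symbol alone, as the protein-coding genes whose RefSeq symbol starts with Mrpl or Mrps followed by a digit. The rule found 78 of the 21887 protein-coding genes on chromosomes 1 to 19, X and Y, 49 with a large subunit symbol (Mrpl) and 29 with a small subunit symbol (Mrps). H4K12la was mapped by CUT&Tag, in which an antibody tethers a transposase to marked chromatin and the DNA fragments it cuts are sequenced. There were 8 libraries, 2 from each of 4 groups: 5XFAD microglia, WT microglia, 5XFAD total cells and WT total cells, where WT are wild-type mice. 5XFAD mice model Alzheimer disease through mutated human transgenes that a Thy1 promoter drives mainly in neurons. All cells came from whole brain without cerebellum. Microglia are the resident macrophages of the brain and were purified with beads against CD11b, a surface protein that other myeloid cells also carry, while total cells were not purified and still contain microglia. The labels used here give no age or sex and do not say whether same-group libraries came from separate mice, so that any p-value measures only the spread between these libraries, which may be technical.

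The mitochondrial ribosome translates the few messages of the mitochondrial genome, all of which encode subunits of the respiratory chain and ATP synthase. Its RNAs are transcribed inside the organelle, but every one of its proteins is encoded in the nucleus, made in the cytosol and imported. The large subunit forms peptide bonds and the small subunit holds the message and decodes it. Some of its proteins descend from those of bacterial ribosomes and others were added during the evolution of mitochondria. Lactylation is an acyl mark on lysine derived from lactate, and H4K12la is found largely at the promoters of genes.

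The peak lists held 29947 and 41783 peaks in 5XFAD microglia, 22300 and 33500 in WT microglia, 32967 and 22807 in 5XFAD total cells, and 25271 and 22543 in WT total cells. Microglial peaks were wider, with library medians between 580 and 735 bp in width, against 287 to 366 bp for total cell peaks. Read counts are not part of the lists. Depth is therefore unknown, and a gene with no peak is one at which none was listed. Of 10 microglial marker genes fixed for the check, 9, 10, 9 and 9 had a peak in the microglia libraries, against 5 and 3 in 5XFAD total cells and 1 and 2 in WT total cells. Of 8 neuronal markers, 0 to 1 had a peak in any microglia library and 1 in each total cell library, and the single marker of this kind says little of how many neurons the total cells held. Of 6 oligodendrocyte markers, 1, 2, 1 and 1 had a peak in the microglia libraries, with Mbp in all 4, against 0 in every total cell library. Of 6 astrocyte markers, 2 to 3 had a peak in microglia libraries and 1 to 3 in total cell libraries, so that these lists did not separate the preparations in the direction of their names. A gene is called marked below when at least 1 base of a peak lies within 2 kb on either side of either annotated end of the gene.

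The mitochondrial ribosomal protein genes were marked far more often than protein-coding genes at large. Of the 78 genes, 35 (44.9%) were marked in every one of the 8 libraries, against 17.7% of all protein-coding genes. Only 3 of the 78 (3.85%) were marked in no library, against 41.1% of all genes. Between those ends, 11 genes were marked in 7 libraries, 8 in 6, 8 in 5, 4 in 4, 2 in 3, 4 in 2 and 3 in 1. In 5XFAD microglia 78.2% and 92.3% of the genes were marked, against 40.9% and 49.0% of all genes in the same libraries. In WT microglia the shares were 67.9% and 85.9%, against 33.3% and 43.5% of all genes. In 5XFAD total cells they were 80.8% and 73.1%, against 41.8% and 34.7%. In WT total cells they were 69.2% and 65.4%, against 36.5% and 34.2%. Every library therefore marked a larger share of these genes than of all genes, and the 2 sets of 8 shares did not overlap. The gap, which takes out the part of a list's length that touches all genes alike, was 37.4 ± 4.34 percentage points (SD, n = 8) and ran between 31.2 and 43.3 points in single libraries.

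**Figure D1:**
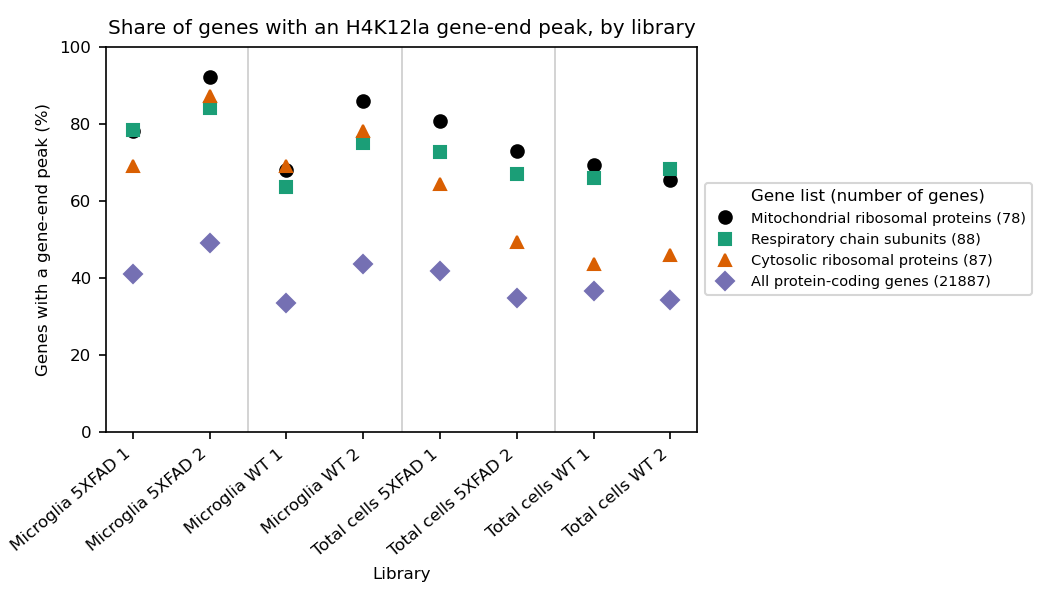
Share of genes with an H4K12la peak within 2 kb of a gene end (vertical axis, percent) in each of the 8 libraries (horizontal axis), with 1 point per library for 78 mitochondrial ribosomal protein genes, 88 respiratory chain subunit genes, 87 cytosolic ribosomal protein genes and all protein-coding genes. The mitochondrial ribosomal protein genes lie between 65.4% and 92.3%, and all genes between 33.3% and 49.0%.

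The gap was also present among genes whose windows stand alone. The windows of 21 mitochondrial ribosomal protein genes overlap no window of another protein-coding gene, and 11 of these 21 (52.4%) were marked in all 8 libraries and 0 in none. Of the 12616 protein-coding genes with windows that stand alone in the same way, 12.8% were marked in all 8 and 55.3% in none. Among genes in crowded places, the count was 24 of 57 mitochondrial ribosomal protein genes, against 24.3% of 9271 genes. The genes are short, with a median length of 7.69 kb against 17.2 kb for all genes. Of the 11849 protein-coding genes of up to 20 kb, 14.1% were marked in all 8 libraries, and 68 of the 78 mitochondrial ribosomal protein genes are of that length. The only window shared between members is that of Mrpl46 and Mrps11, which start 42 bp apart and share their peaks. The 78 genes are spread over 17 chromosomes, with 11 on chromosome 11, 8 on chromosome 17 and none on chromosomes 12, 18, X or Y.

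**Figure D2:**
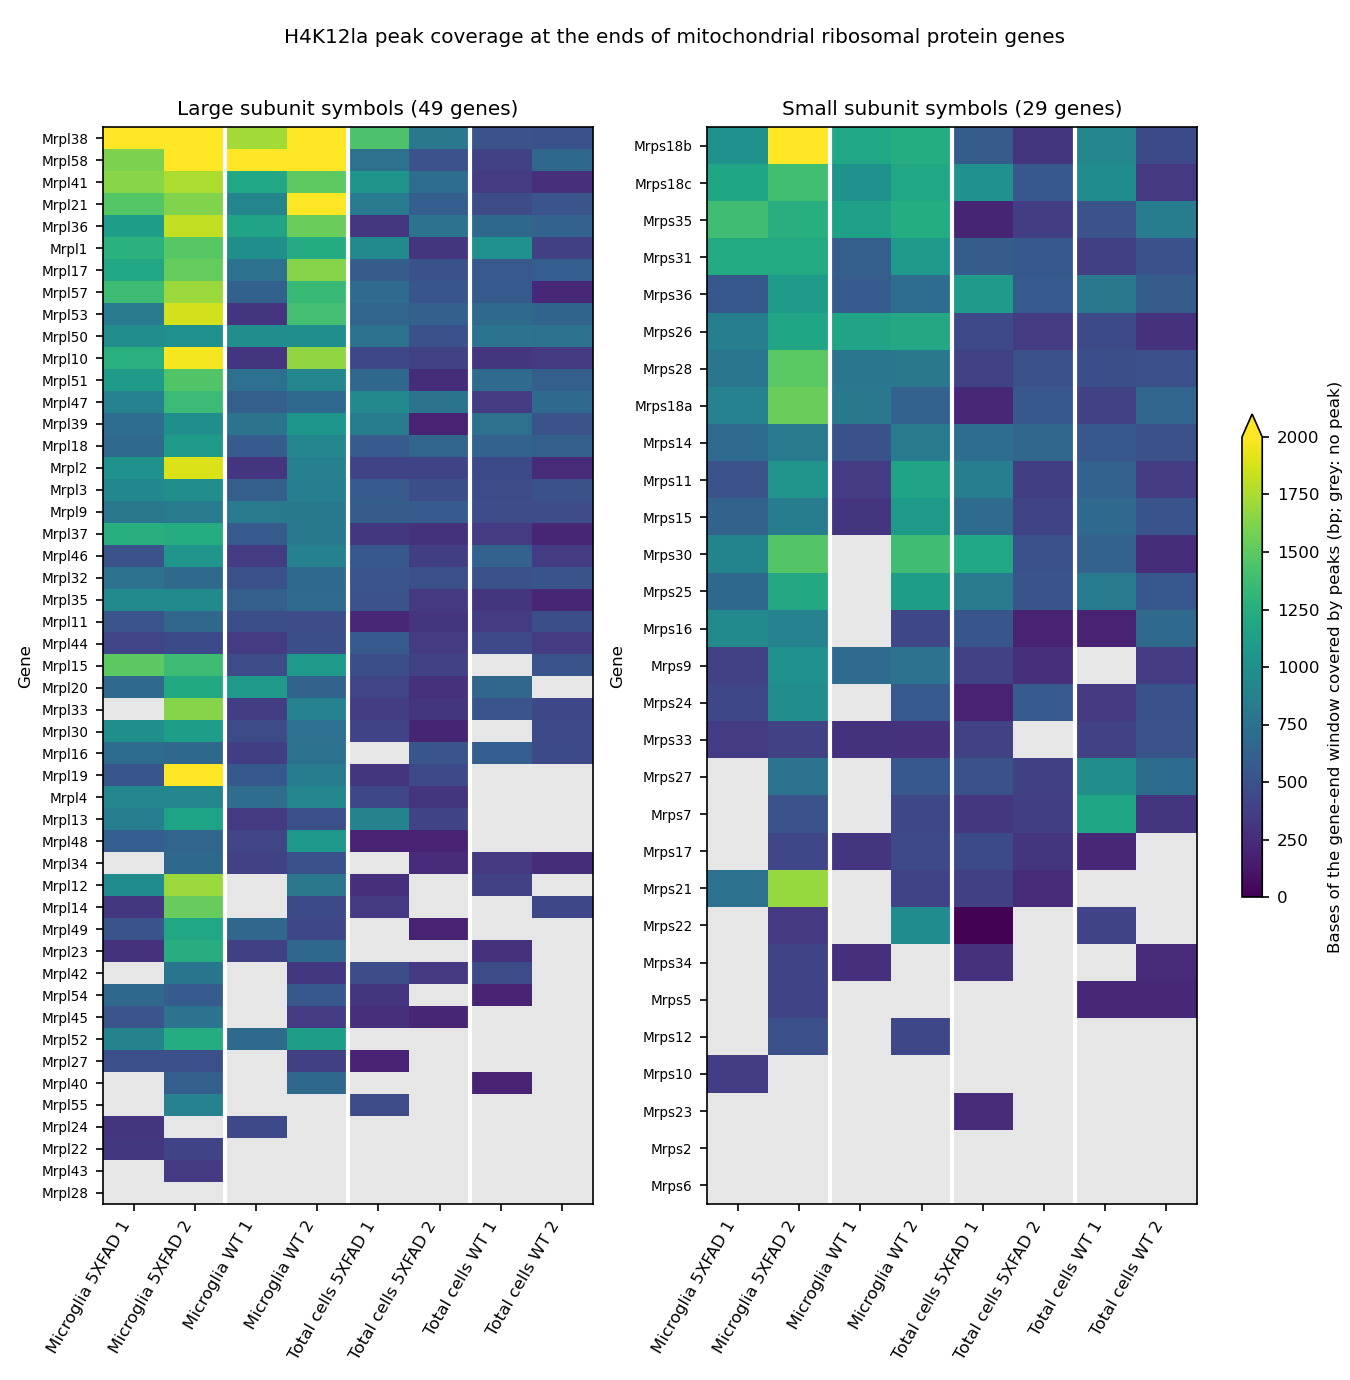
Bases covered by H4K12la peaks within 2 kb of either gene end (colour, bp, with values above 2000 drawn as 2000 and grey for no peak) for the 78 mitochondrial ribosomal protein genes (rows) in the 8 libraries (columns), with Mrpl and Mrps symbols in separate panels sorted by the number of libraries with a peak. The topmost 24 Mrpl and 11 Mrps genes have a peak in all 8 libraries and 3 genes (Mrps2, Mrps6, Mrpl28) have one in none.

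The mark lay at the transcription start. A listed start and strand were available for 69 of the 78 genes. Between 60.9% and 94.2% of those 69 had a peak within 2 kb of the start, depending on the library, against 30.5% to 45.9% of 17492 protein-coding genes with a listed start. At the opposite gene end the shares were 13.0% to 21.7% for the mitochondrial ribosomal protein genes and 8.03% to 17.2% for all genes. Among the 51 genes longer than 4 kb, whose 2 end windows do not overlap, the ranges were 62.7% to 94.1% at the start and 5.88% to 21.6% at the opposite end. Over all 14059 genes longer than 4 kb with a listed start they were 34.8% to 51.9% and 8.22% to 17.4%. Library by library, the opposite end of genes longer than 4 kb differed in direction between the preparations. The shares were 5.88% and 9.80% in 5XFAD microglia and 5.88% and 11.8% in WT microglia. Those of all such genes were 12.3%, 17.4%, 9.09% and 13.8%. In total cells they were 21.6% and 13.7% (5XFAD) and 11.8% and 11.8% (WT), against 12.7%, 8.34%, 9.16% and 8.22%. With all 69 genes the share was above that of all genes in every library. The exact start base lay under a peak in 58.0% of the 69 genes on average over microglia libraries and in 54.0% over total cell libraries, against 22.4% and 20.7% of all genes. At 1000 bp upstream the shares were 7.25% in microglia and 2.17% in total cells, against 3.97% and 0.998% of all genes. At 1000 bp downstream they were 6.88% and 0.362%, against 6.42% and 1.70% of all genes. The peaks therefore formed a narrow summit over the start, broader in microglia, where coverage was highest 50 bp downstream of it, with 60.1% of the genes covered. Over all genes the summit was lower but at the same places, 50 bp downstream in microglia and at the start in total cells. Downstream of the start, coverage of all genes fell less. At 1000 bp downstream in total cells it was above that of the mitochondrial ribosomal protein genes (1.70% against 0.362%).

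**Figure D3:**
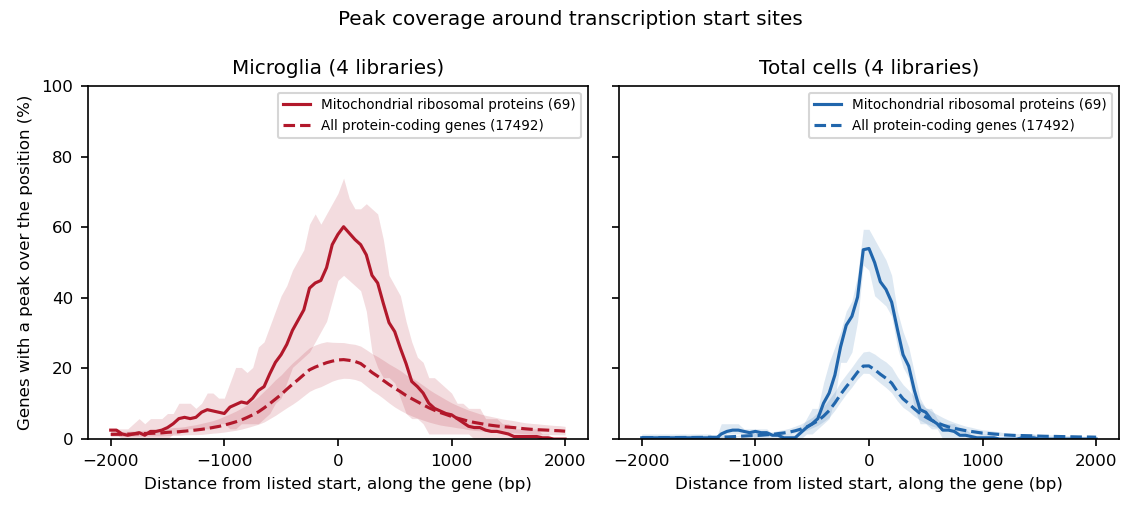
Share of genes with a peak over each position (vertical axis, percent) by distance from the listed transcription start (horizontal axis, bp), for 69 mitochondrial ribosomal protein genes and 17492 protein-coding genes in microglia and total cells, with lines for the mean over 4 libraries and bands for the lowest to highest library. The maxima for the mitochondrial ribosomal protein genes are 60.1% in microglia and 54.0% in total cells, and for all genes 22.5% and 20.7%.

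A few genes did not follow this rule. Mrpl2, a large subunit protein whose bacterial relative helps to form the peptidyl transferase centre, was marked in all 8 libraries, but at its start in 1 and at its opposite end in 8. Mrpl10, which anchors the stalk that recruits translation factors, was marked at its start in 3 libraries and at its opposite end in 8. Mrps18b had a peak at its start in 4 libraries and at the opposite end in 8. The windows of all 3 overlap those of neighbours, namely Cul7 and Klc4 (Mrpl2), Lrrc46 and Osbpl7 (Mrpl10) and Atat1 and Ppp1r10 (Mrps18b). Of these, Klc4 and Ppp1r10 start 141 and 756 bp from the starts of Mrpl2 and Mrps18b, away from the opposite ends. A peak in a shared window cannot be given to 1 of the genes. Mrps2, marked in no library by its outer ends, is annotated at chr2:28465951-28471177 with its listed start at 28468066, more than 2 kb inside the gene, and 3 libraries (both from 5XFAD microglia and 5XFAD total cells 1) had a peak within 2 kb of that start. With starts alone, Mrps6 and Mrpl28 were the 2 of 69 genes (2.90%) marked in no library, against 44.6% of all genes with a listed start.

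The 8 genes with the highest-scoring peaks among the 35 were Mrps31, Mrpl1, Mrpl32, Mrpl9, Mrpl17, Mrpl3, Mrps26 and Mrpl21. Scores are the authors' own and have no stated unit, so each was turned into a percentile within its own list. Mrps31, a small subunit protein with no bacterial relative, had its best peak at a percentile of 92.8 ± 1.51 (SD, n = 8), so that about the same rank recurred in every list. Mrpl1, the large subunit protein of the stalk through which spent tRNA leaves in bacteria, stood at 90.4 ± 3.34. Mrpl32, which is cut by the m-AAA protease before it enters the large subunit, stood at 88.5 ± 11.0. The other 5 had means of 83.6 (Mrpl21) to 87.3 (Mrpl9) with SDs of 8.63 to 12.9, and among them Mrpl3 is the relative of a bacterial protein that reaches the peptidyl transferase centre.

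The promoters of the 5 highest of these genes are shown because these genes carried the highest-ranked peaks of the set. They are RefSeq sequences of GRCm38.p6 that run from 150 bases before to 30 bases after the listed start, 5′ to 3′ on the gene's own strand. Capitals mark matches, on either strand, to 6 short promoter motifs. The letters searched were GCGCATGC for the factor NRF1, CCGGAAG for proteins of the ETS family and AAGATGGC for the factor YY1. Further letters searched were CCAAT for the factor NF-Y, then GGGCGG for proteins of the Sp family, and lastly TATAAA for the core promoter element called the TATA box. The places are chr8:22411190-22411369, plus strand for Mrps31, chr5:96209965-96210144, plus strand for Mrpl1, chr13:14613008-14613187, minus strand for Mrpl32, chr3:94443186-94443365, plus strand for Mrpl9 and chr7:105811058-105811237, minus strand for Mrpl17.
Mrps31: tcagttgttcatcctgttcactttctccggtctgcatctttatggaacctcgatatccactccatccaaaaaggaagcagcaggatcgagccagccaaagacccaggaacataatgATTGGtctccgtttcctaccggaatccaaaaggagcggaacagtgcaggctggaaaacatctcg
Mrpl1: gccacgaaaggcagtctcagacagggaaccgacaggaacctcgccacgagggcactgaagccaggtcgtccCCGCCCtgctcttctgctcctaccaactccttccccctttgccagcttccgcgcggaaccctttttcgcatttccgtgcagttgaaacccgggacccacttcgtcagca
Mrpl32: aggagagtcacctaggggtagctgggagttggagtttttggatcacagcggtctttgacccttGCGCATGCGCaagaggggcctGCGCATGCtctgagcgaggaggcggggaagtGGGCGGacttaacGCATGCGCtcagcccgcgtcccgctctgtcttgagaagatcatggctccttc
Mrpl9: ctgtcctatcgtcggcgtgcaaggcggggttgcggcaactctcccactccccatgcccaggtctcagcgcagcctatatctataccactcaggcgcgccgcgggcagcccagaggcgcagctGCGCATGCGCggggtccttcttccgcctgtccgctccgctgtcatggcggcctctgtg
Mrpl17: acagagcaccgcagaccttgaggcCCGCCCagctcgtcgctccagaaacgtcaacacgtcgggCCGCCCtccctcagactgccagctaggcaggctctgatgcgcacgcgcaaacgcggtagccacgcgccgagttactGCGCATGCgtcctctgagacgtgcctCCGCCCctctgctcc
Peaks covered the start base in 8 libraries at Mrps31, Mrpl32, Mrpl9 and Mrpl17, and in 7 at Mrpl1. In Mrpl32 and Mrpl9 the NRF1 letters and their reverse complement overlap, which gives a longer run of capitals. Mrpl32 and Mrpl17 hold matches to the NRF1 and Sp letters, Mrpl9 to the NRF1 letters, Mrpl1 to the Sp letters and Mrps31 to the NF-Y letters only.

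Over the full promoter window of 300 bases, 3 motifs were found in a larger share of mitochondrial ribosomal protein genes than of all genes. The letters of the ETS family, which includes the mitochondrial gene regulator NRF2 (GABP), were found in 24 of 69 promoters (34.8%), against 11.9% of 17492. Those of YY1 were found in 12 (17.4%), against 3.21%. Those of NRF1, a regulator of nuclear genes for mitochondria, were found in 8 (11.6%), against 3.61%. NF-Y letters (39.1% against 39.2%) and Sp letters (49.3% against 46.3%) were about as frequent as in all promoters, and TATA letters were found in 5.80% against 13.3%. Within the set, the 32 genes marked in all 8 libraries and the 37 marked in fewer held ETS letters in 12 and 12 promoters, YY1 letters in 6 and 6, and NRF1 letters in 6 and 2. For those 32 genes the shares were 37.5% (ETS), 18.75% (YY1) and 18.75% (NRF1). Over all 3169 genes with a listed start marked in all 8 libraries they were 21.4%, 4.99% and 6.03%. Marked promoters at large thus also held these letters more often than all promoters. A match is a description of the letters and not a binding site, and none of these shares was tested.

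Many of these promoters are shared with a neighbour that points the other way. A gene on the opposite strand starts within 1 kb upstream of 23 of the 69 mitochondrial ribosomal protein genes (33.3%), against 7.52% of all genes with a listed start. Of these 23 divergent genes, 14 (60.9%) were marked in all 8 libraries, against 37.3% of the 1315 divergent genes of the genome. Of the 46 with no such neighbour, 18 (39.1%) were marked in all 8, against 16.6% of the corresponding 16177 genes. The distance between the paired starts ran between 32 and 935 bp, with a median of 141 bp. One peak lay over both starts in all 8 libraries at Mrpl21 with Ighmbp2, Mrpl46 with Mrps11, Mrpl50 with Zfp189, Mrps18c with Helq and Mrpl32 with Psma2. Not every close pair was marked in this way, since Mrpl27, which starts 48 bp from Eme1, was marked in 4 libraries with no peak over both starts. Mrps12, whose bacterial relative sits in the decoding centre, starts 147 bp from Sars2, the gene of mitochondrial seryl-tRNA synthetase. It had 0 and 485 bp covered in 5XFAD microglia, 0 and 437 bp in WT microglia and 0 in all 4 total cell libraries. Both genes of that pair were thus marked in 2 libraries of microglia and in none of total cells.

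The share of mitochondrial ribosomal protein genes marked was 81.1 ± 10.5% in microglia and 72.1 ± 6.57% in total cells (SD, n = 4 each), and the gap to all genes was 39.4 ± 4.16 points in microglia and 35.3 ± 3.93 points in total cells. The gap was thus 4.11 points larger in microglia, about the size of the SD within each preparation, and it was 1.42 points with lists cut to an equal number of peaks, 2.36 with 5 kb windows and -5.03 with the higher-scoring 50% of each list. Only 1 of the 78 genes was marked in all 4 microglia libraries and no library of total cells, where 1.5% of all genes met the same rule. None met the reverse rule, which 0.649% of all genes did. Both counts are near the shares over all genes.

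The gene marked in microglia alone was Mrpl52, a large subunit protein with no bacterial relative. It had 891 and 1242 bp covered in 5XFAD microglia, 691 and 1113 bp in WT microglia, and 0 bp in every total cell library. All 4 microglia libraries were therefore above all 4 total cell libraries. The difference in means was 984 bp. No p is given, since the rule that chose the gene fixes the separation. The window also overlaps that of Mmp14, a membrane metalloprotease gene. The promoter of Mrpl52 (chr14:54426759-54426938, plus strand) is shown, as above, because it is the only one of the set that was marked in this way. Its capitals mark 2 matches to the ETS letters, and the start base was covered in 4 libraries.
Mrpl52: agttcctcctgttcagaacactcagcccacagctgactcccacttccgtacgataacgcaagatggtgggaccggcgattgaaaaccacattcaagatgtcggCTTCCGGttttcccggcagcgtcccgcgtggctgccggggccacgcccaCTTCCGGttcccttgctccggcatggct

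Most genes had more covered bases on average in microglia, the mitochondrial ribosomal protein genes among them, with no call after adjustment. Covered bases in the windows were compared by an exact two-sided permutation test over the 70 ways to split 8 libraries into 4 and 4, for all 12882 genes marked in at least 1 library. Of the 75 mitochondrial ribosomal protein genes tested, 68 had a higher mean in microglia, as had 9995 of the 12882 genes, and the median difference was 316 bp, against 272 bp over all genes tested. No gene of the set and none of the 12882 (0%) passed an adjusted p of 0.05, and the smallest adjusted p was 0.12. With these library numbers a call would need at least 7362 of the 12882 genes (57.1%) at the smallest p, so the absence of calls was close to fixed by the design. Without adjustment, 25 of the 75 (33.3%) were higher in microglia at an exact permutation p of 0.029, with no overlap between the groups, against 22.3% of all genes tested. None was lower at that p, against 1.56% of all genes. The wider peaks of the microglia lists move with this result. When covered bases were expressed as a share of each library's covered bases, 1 of the 75 was higher in microglia and 10 were lower at unadjusted p under 0.05, against 832 and 1613 of 12882 genes. Leaving out 1 library moved the count of 25 to 11 of 75 without WT total cells 2, against 1562 of 12683 genes. It was 13 without each of the other 3 total cell libraries in turn. Beside it stood 2021 of 12658 (5XFAD 1 left out), 1652 of 12780 (5XFAD 2) and 1655 of 12648 genes (WT 1). Without a microglia library it ran between 19 of 74 (5XFAD 2 left out, 2195 of 12513 genes) and 35 of 75 (WT 1 left out, 4060 of 12867 genes). Groups without overlap stay apart when a library is left out, so a lower count shows no lost separation. The fall belongs to the two-sided test of unequal groups, which has 35 possible splits in place of 70.

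**Figure D4:**
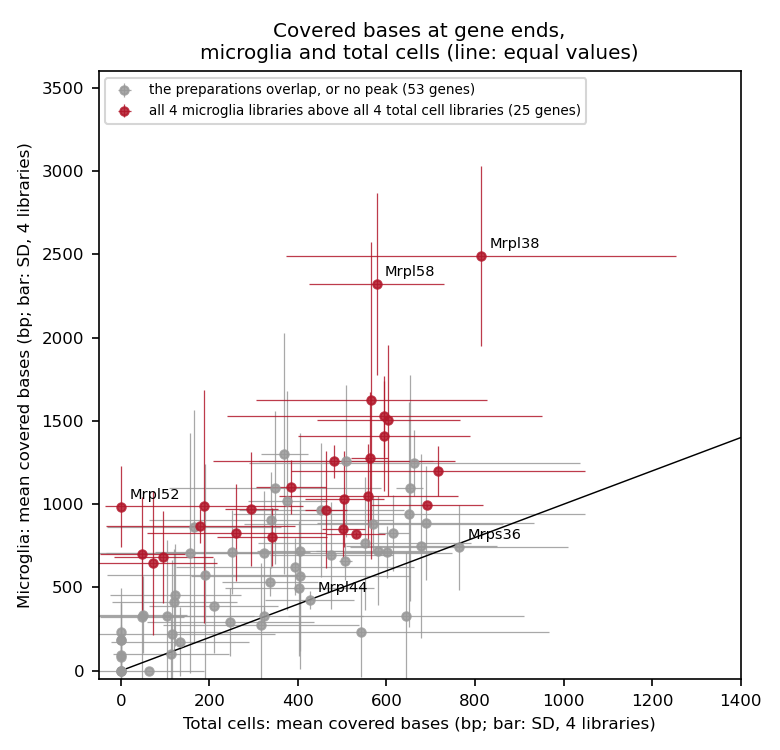
Mean bases covered by H4K12la peaks near the gene ends (bp) in microglia (vertical axis) and total cells (horizontal axis), with 1 point for each of the 78 mitochondrial ribosomal protein genes, bars for the SD over 4 libraries and a line where both means are equal. Points lie above the line for 68 genes, and red marks the 25 genes at which all 4 microglia libraries were above all 4 total cell libraries.

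The largest difference in means among the 35 genes marked throughout, 1744 bp, was at Mrpl58, a peptidyl-tRNA hydrolase that frees stalled ribosomes and is also built into the large subunit. It had 1609 and 2732 bp covered in 5XFAD microglia, 2178 and 2767 bp in WT microglia, 736 and 514 bp in 5XFAD total cells, and 396 and 665 bp in WT total cells. Every microglia library was above every total cell library (exact permutation p = 0.029, adjusted p = 0.12), and the window overlaps that of Atp5h, an ATP synthase subunit gene. The highest-scoring peak of Mrpl58 was centred at 9673.5 to 10066 bp from its start in microglia, beyond the opposite end. In total cells it was centred at 15.5 bp (5XFAD 1), 9781 bp (5XFAD 2), -19.5 bp (WT 1) and 18 bp (WT 2). The start was marked in 8 libraries and the opposite end in 7. At Mrpl38, a large subunit protein with no bacterial relative, the values were 2526 and 2923 bp in 5XFAD microglia, 1719 and 2795 bp in WT microglia, 1443 and 797 bp in 5XFAD total cells, and 512 and 506 bp in WT total cells. Those groups did not overlap, and the window is shared with Fbf1 and Trim65. Mrps31 had 1221 and 1224 bp covered in 5XFAD microglia, 609 and 1074 bp in WT microglia, 586 and 549 bp in 5XFAD total cells, and 381 and 505 bp in WT total cells. Its groups did not overlap either, with the lowest microglia library just above the highest total cell library.

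Other genes were covered alike in both preparations. Mrpl44, a large subunit protein with a ribonuclease fold that is mutated in an infantile cardiomyopathy of people, had 421 and 448 bp covered in 5XFAD microglia, 351 and 482 bp in WT microglia, 564 and 350 bp in 5XFAD total cells, and 441 and 351 bp in WT total cells. The groups overlapped and their means differed by 1 bp (exact permutation p = 1). Mrps36, named as a small subunit protein but also described as a part of the 2-oxoglutarate dehydrogenase complex, had 548 and 1107 bp in 5XFAD microglia, 580 and 726 bp in WT microglia, 1099 and 569 bp in 5XFAD total cells, and 799 and 588 bp in WT total cells. Its groups overlapped as well (exact permutation p = 0.8).

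The genes with large and small subunit symbols differed in how their shares compared between preparations. The share of the 49 with an Mrpl symbol was 87.2 ± 7.70% in microglia and 70.9 ± 8.23% in total cells (SD, n = 4 each), with 38 to 47 genes marked in microglia libraries and 30 to 39 in total cell libraries. The share of the 29 with an Mrps symbol was 70.7 ± 15.3% in microglia and 74.1 ± 5.97% in total cells. Set against all genes in the same libraries, the gap differed by 11.5 points (microglia minus total cells) for Mrpl symbols and by -8.32 points for Mrps symbols. The contrast kept these signs with lists cut to an equal number of peaks (10.7 and -14.2 points), with the higher-scoring 50% of peaks (2.84 and -18.3) and with scores of at least 50 (13.2 and -14.3). With starts alone the values were 14.9 and 1.48 points for the 43 and 26 genes with a listed start, while the same genes gave 9.05 and -8.75 points in gene-end windows, so that the sign for Mrps symbols depended on the window. The difference was seen in the data and not tested, and it is one of symbols, which do not always name the subunit (see Mrps18a and Mrps36). Over all libraries, 24 of 49 Mrpl genes and 11 of 29 Mrps genes were marked in all 8. By origin, as classed in the standard ribosomal nomenclature (where Mrps18a and Mrps18b count as specific to mitochondria although they resemble a bacterial protein), 17 of 32 genes for proteins specific to mitochondria and 18 of 46 for proteins with a bacterial counterpart were marked in all 8, and the 3 genes marked nowhere (Mrps2, Mrps6 and Mrpl28) all have such a counterpart.

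Mrps18 has 3 paralogs in mammals, of which the product of Mrps18a is placed in the large subunit and those of Mrps18b and Mrps18c in the small one. All 3 were marked in all 8 libraries. Mrps18c had 1172 and 1394 bp covered in 5XFAD microglia, 1029 and 1200 bp in WT microglia, 1014 and 546 bp in 5XFAD total cells, and 971 and 331 bp in WT total cells. Mrps18b had 1020 and 3041 bp in 5XFAD microglia, 1195 and 1237 bp in WT microglia, 593 and 305 bp in 5XFAD total cells, and 916 and 449 bp in WT total cells. Microglia lay above total cells without overlap at both of these genes. Mrps18a overlapped slightly, with 884 and 1546 bp in 5XFAD microglia, 799 and 626 bp in WT microglia, 220 and 543 bp in 5XFAD total cells, and 398 and 649 bp in WT total cells (exact permutation p = 0.0571). These bases lay at different ends of Mrps18a for the most part. Its highest-scoring peak was centred at -319.5 to -55.5 bp from the start in microglia libraries. In total cell libraries it was centred at 18916.5 to 19084 bp, beyond the opposite end. The start was marked in 5 libraries and the opposite end in 5.

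Some members were marked in a scattered way. Mrpl12, the stalk protein that contacts translation factors, had 968 and 1702 bp covered in 5XFAD microglia, 0 and 792 bp in WT microglia, 279 and 0 bp in 5XFAD total cells, and 383 and 0 bp in WT total cells. Mrps34, a small subunit protein mutated in Leigh syndrome in people, had 0 and 413 bp in 5XFAD microglia, 279 and 0 bp in WT microglia, 288 and 0 bp in 5XFAD total cells, and 0 and 247 bp in WT total cells. Each group thus held 1 library with a peak and 1 without at Mrps34, and the same held in 3 of the 4 groups at Mrpl12. The highest-scoring peaks of Mrpl12 were centred at -1184.5 to -161.5 bp from its start in microglia. In total cells they were centred at 4747 and 5004 bp, beyond the opposite end. The windows of Mrpl12 overlap those of Hgs and Slc25a10. The window of Mrps34 overlaps those of Eme2, Mapk8ip3, Nme3 and Spsb3.

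Few of these genes separated 5XFAD from WT microglia. Of the 78, 1 was marked in both libraries of 5XFAD microglia and neither of WT microglia, against 3.19% of all genes, and 0 showed the reverse, against 0.58%. The 1 gene was Mrpl22, whose bacterial relative lines the tunnel through which the new peptide leaves. It had 326 and 408 bp covered in 5XFAD microglia and 0 and 0 bp in WT microglia, and 0 bp in all total cell libraries. An exact test of 2 against 2 libraries cannot go below p = 0.33, so none of the genotype differences can pass a threshold. The count rested on WT microglia 2. Without that library it was 11, since 10 more genes were marked in every microglia library except WT 1, the one with the fewest peaks. The share of all genes under that rule is not given here, so the 11 cannot be read as a result about these genes. The gap between these genes and all genes was 37.3 and 43.3 points in 5XFAD microglia and 34.6 and 42.4 points in WT microglia, so that the genotypes overlapped.

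In total cells 6 of the 78 genes (7.69%) were marked in both 5XFAD and neither WT library, against 3.11% of all genes, and 1 showed the reverse, against 1.64%. The 6 were Mrpl45, Mrps21, Mrpl19, Mrpl48, Mrpl4 and Mrpl13. Mrpl45, which holds the ribosome to the inner mitochondrial membrane, had 269 and 215 bp covered in 5XFAD total cells and 0 and 0 bp in WT total cells. Mrpl19 had 307 and 445 bp in 5XFAD total cells and 0 and 0 bp in WT total cells. Mrpl13 had 894 and 401 bp in 5XFAD total cells and 0 and 0 bp in WT total cells. The other 3 had 189 to 422 bp in the 5XFAD libraries. In microglia none of the 6 met the same rule, since 4 were marked in all 4 libraries and Mrpl45 and Mrps21 in all but WT 1. Mrps5, whose bacterial relative lies at the entry of the message channel, went the other way, with 0 and 0 bp in 5XFAD total cells and 219 and 234 bp in WT total cells.

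The gap to all genes was 38.9 and 38.4 points in 5XFAD total cells and 32.8 and 31.2 points in WT total cells, a difference of 6.70 points with no overlap. For the 69 genes with a listed start, among which Mrpl19, Mrpl4 and Mrpl13 are missing, it was 2.99 points in the same windows and -1.24 points with starts alone, so that both the genes and the window moved it. Microglial markers moved with it, since 5 and 3 of the 10 were marked in 5XFAD total cells and 1 and 2 in WT total cells, and the longer of the 2 5XFAD lists is the longest total cell list. The part of microglia or of list length in the result was not tested. In bulk cells, a larger share of cells that carry the mark and more mark per cell cannot be told apart.

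Genes that work with the mitochondrial ribosome were marked in different proportions. Of 15 translation factors, 10 were marked in all 8 libraries, among them Mtif2, which starts translation, Gfm1 and Gfm2, elongation and recycling factors, Mtrf1l, a release factor, and Oxa1l, which inserts new proteins into the inner membrane. Tsfm, the exchange factor of elongation factor Tu, and Mtfmt, which formylates the initiator tRNA, were marked in none, and Tufm, elongation factor Tu itself, in both 5XFAD microglia libraries only. Of 30 genes for ribosome assembly and mitochondrial transcription, 12 were marked in all 8 libraries, among them Tfam, which packages mitochondrial DNA and activates its transcription, Tfb1m, which methylates the small ribosomal RNA, and Afg3l2, a subunit of the m-AAA protease. Polrmt, the mitochondrial RNA polymerase, was the 1 gene of that list marked in none. Of 22 genes that charge mitochondrial tRNAs, 8 were marked in all 8 libraries and 1, Aars2, in none. Of 5 mitochondrial ribosomal proteins under other symbols, Dap3, a small subunit protein that binds GTP, was marked in all 8 and the others in 5 to 7.

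The proteins of the cytosolic ribosome had a different pattern. Of 87 such genes, 21 (24.1%) were marked in all 8 libraries and 8 in none. Their share was 75.9 ± 8.80% in microglia and 50.9 ± 9.31% in total cells (SD, n = 4 each), while the mitochondrial set had 81.1 ± 10.5% in microglia and 72.1 ± 6.57% in total cells. Of the 88 nuclear genes for subunits of the respiratory chain and ATP synthase, 41 (46.6%) were marked in all 8 libraries and 9 in none, with shares of 75.3 ± 8.62% in microglia and 68.5 ± 2.99% in total cells. The mitochondrial ribosomal protein genes thus stood nearer to the respiratory chain genes than to those of the cytosolic ribosome, a description that was not tested.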

How the data were processed

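H4K12la CUT&Tag was analysed in 8 mouse brain libraries, 2 for each of 4 groups taken from the sample titles and labels. Per the submitters' processing notes, the tools included deepTools, Bowtie2 and fastp 0.19.6, and the build was GRCm38 (mm10). How peaks were called, and against what threshold or control, is not given in the sources used here. Each library has 1 peak list deposited by the authors, with a whole-number score per peak whose unit is not stated and whose lowest value is 20 in every list. The deposited score was used only to rank or filter peaks within a list, as a percentile. Depth is unknown, so no interval or detection limit was computed, and longer lists mark more genes.

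Positions of genes were those of a RefSeq table (GRCm38.p6), and starts and strands from a RefSeq promoter table, which covers 69 of the 78 genes. Where several starts are listed, the one nearest the outer end was used. A gene was marked when a peak overlapped by 1 bp or more a window of 2 kb on either side of either gene end. Calls between groups required peaks in all libraries on one side and no peak on the opposite side. Covered bases were tested for all 12882 genes with a peak in at least 1 library by exact permutation with Benjamini-Hochberg adjustment (threshold 0.05), in Python 3.11.15 with numpy 2.4.6 and pandas 2.3.3. The code was tested on simulated data. No 2 lists shared more than 193 identical intervals, so every library was counted separately.

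The genes, gene lists and tests were chosen with earlier results of these data known. Genes named with values were those called between groups (up to 8 per direction for genotype), the 8 with the highest mean percentile among those marked in all libraries, those marked in none, and 10 listed by function (the Mrps18 paralogs, Mrpl12, Mrps12, Mrpl58, Mrpl44, Mrps5, Mrps34, Mrps36). Other members (such as Mrpl38, Mrpl2, Mrpl10, Mrpl27 and those in the closing observations) were named after their values were seen. The symbol pattern for cytosolic ribosomal proteins also matched Rps6k kinases, which were removed after the list was seen. Of 16 translation factors listed, 15 matched a gene (the exception being Mtrfr). Alternatives tried were other windows, score filters, equal list lengths, starts alone, isolated windows, scaled coverage, a replicate block and leaving out each library.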

Additional observations from a re-analysis of the deposited data

Results flagged for a closer look

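One value among 6 groups of 4 libraries tested stood apart by Dixon's criterion. The median bases covered at the mitochondrial ribosomal protein genes with a peak was 396 bp in 5XFAD total cells 2, against 480 bp in 5XFAD total cells 1 and 477 and 486 bp in WT total cells. In the same libraries the median over all genes with a peak was 429 bp in 5XFAD total cells 2, against 559 bp in 5XFAD total cells 1 and 449 and 400 bp in WT total cells, so that over all genes this library was not the lowest. Chance flags about 1 in 20 such groups, and the cause was not tested.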

How the results depend on the processing

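Under 11 settings other than leaving out a library, 45 of 113 values moved beyond a tolerance (1.5 times for a count, 1 SD between replicates for a gap) and 68 did not, a tolerance wide enough for small gaps to change several times in size. The count of genes marked in all 8 libraries was 35 of 78 (44.9%), 26 with scores of at least 50 and 16 with the higher-scoring 50% of peaks, 40 with 5 kb windows, 26 of 69 with starts alone, and 11 of 21 (52.4%) for isolated windows. Of all genes, 17.7% were marked in all 8 in the main setting. That share was 22.5% with 5 kb windows, 16.2% with starts alone and 12.8% for isolated windows. The count marked in none was 3, and became 8 with equal numbers of peaks, 1 with the gene body, 7 with 1 kb windows, 0 with 5 kb windows, 0 with isolated windows, 12 with the higher-scoring 50% and 8 with scores of at least 50. The mean gap to all genes, 37.4 points, was 31.5 with the gene body, 60.3 with isolated windows, 29.2 with the higher-scoring 50% and 33.6 with scores of at least 50, so it remained above 29 points.

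The microglia minus total cells gap was 9.85 points with starts alone, 7.74 with the gene body and -5.03 with the higher-scoring 50%, and also 1.42 with equal numbers, 2.36 with 5 kb windows and 2.94 with scores of at least 50. By symbol it was 14.9 (Mrpl) and 1.48 (Mrps) with starts alone and 2.84 and -18.3 with the higher-scoring 50%. The microglia-only count of 1 became 2 with starts alone and with scores of at least 50, and 0 with 5 kb windows, isolated windows or the higher-scoring 50%. Of all genes, 1.28% met that rule with 5 kb windows and 1.18% with isolated windows. The total-cell-only count became 1 with equal numbers of peaks.

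For genotype in microglia, the 5XFAD-only count of 1 was 3 (starts alone, gene body, 5 kb), 5 (equal numbers), 0 (1 kb, isolated windows), 6 (higher-scoring 50%) and 4 (scores of at least 50). Of all genes, 3.02% met that rule with 1 kb windows, 3.09% with 5 kb windows and 2.42% with isolated windows. The WT-only count was 1 with equal numbers and with the higher-scoring 50%, and the gap difference of 1.80 points was 7.06 with starts alone and 7.02 with the higher-scoring 50%, and between 0.521 and 5.85 elsewhere. In total cells the 5XFAD-only count of 6 of 78 was 3 of 69 with starts alone, 3 of 69 for those genes in gene-end windows and 2 of 21 (9.52%) with isolated windows, and the WT-only count was 0 with 5 kb or isolated windows. Of all genes, 3.03% of those with a listed start met the 5XFAD-only rule in gene-end windows. With isolated windows 2.38% met it and 1.22% met the WT-only rule. The gap difference of 6.70 points was -1.24 (starts alone), 2.99 (the same 69 genes in gene-end windows), 5.78 (equal numbers), 4.91 (1 kb), 4.56 (5 kb), 12.1 (isolated windows), 4.36 (higher-scoring 50%) and 5.23 (scores of at least 50). The causes were not tested.

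Leaving out each library in turn gave 35 to 39 genes marked in all libraries, 3 to 4 in none, 1 to 2 in microglia only and 0 to 0 in total cells only. It gave 1 to 11 in 5XFAD microglia only (11 without WT microglia 2, 4 and 2 without either 5XFAD library), 0 to 3 in WT microglia only (3 without 5XFAD microglia 2), 6 to 9 in 5XFAD total cells only and 1 to 3 in WT total cells only. The shares of all genes with a library left out are not given here, so these counts describe the set alone. The gaps ran between 36.5 and 38.2 points for the mean of all libraries, 2.72 and 5.71 for microglia minus total cells, -2.10 and 5.71 for genotype in microglia, and 5.89 and 7.50 for genotype in total cells. For covered bases, 0 genes passed the adjusted test in every setting run, which the smallest possible p all but fixes and which shows no stability. With the replicate number as a block, 0 of 75 genes passed and the smallest p that 36 arrangements allow was 0.0556. Deviations of same-numbered libraries correlated at -0.117 to 0.215 over 12882 genes, with the highest value between 5XFAD and WT microglia. These values do not settle whether the numbers pair any of the libraries. The settings by symbol and the 69 genes in gene-end windows were chosen after seeing the data. Unknown depth limits every absence of a peak.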

Other observations

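Several mitochondrial ribosomal protein genes lie beside a gene for another mitochondrial protein, a grouping noticed in the data and given as values only. Mrpl47, which starts 308 bp from the complex I subunit gene Ndufb5 on the opposite strand, was marked in 8 libraries, and 1 peak lay over both starts in 6 of them. Mrpl36, whose window overlaps that of the complex I subunit gene Ndufs6, had 1112 and 1815 bp covered in 5XFAD microglia, 1169 and 1543 bp in WT microglia, 315 and 758 bp in 5XFAD total cells, and 675 and 630 bp in WT total cells. Its microglia libraries were all above its total cell libraries. Mrpl43 shares its window with Twnk, the helicase of mitochondrial DNA, and was marked in 5XFAD microglia 2 only, with 336 bp covered. Mrps27, a small subunit protein of the pentatricopeptide repeat family beside Ptcd2, had 0 and 762 bp in 5XFAD microglia, 0 and 543 bp in WT microglia, 496 and 382 bp in 5XFAD total cells, and 987 and 709 bp in WT total cells, so that the groups overlapped (exact permutation p = 0.257).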
